A study of Mus musculus with 8 samples.

Results

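The enzymes examined were 10 that act in the last steps of epidermal differentiation, namely Asprv1, Casp14, Blmh, Hal, the transglutaminases Tgm1, Tgm3 and Tgm5, and the peptidylarginine deiminases Padi1, Padi2 and Padi3. They were chosen by gene name for their role in filaggrin processing, protein cross-linking and deimination, and are 10 of the 22740 protein-coding genes listed. A filter on low counts left 15163 genes for testing, and 9 of the 10 genes passed it. Padi3 did not pass, because it was counted above the filter in 1 mouse only, and it is described by its levels.

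RNA of dorsal skin was sequenced from 8 female BALB/c mice on a low-fibre diet, giving 8 libraries in 4 groups of 2. The question of the study was whether butyrate, a short-chain fatty acid made from fibre by gut bacteria, alters the skin before and after exposure to house dust mite allergen (HDM). Baseline CTL mice (replicates 1 and 2) drank plain water and saw no allergen, and baseline butyrate mice (replicates 1 and 3) drank 400 mM sodium butyrate and saw no allergen either. Lesional CTL mice (replicates 4 and 5) drank plain water and lesional butyrate mice (replicates 3 and 4) drank 400 mM sodium butyrate from 2 weeks before the allergen onwards. Lesional mice received 4 exposures to 15 µg HDM over 2 weeks under an occlusive patch on shaved skin. Mice of all 4 groups were 6 to 8 weeks old. The first number in the sample labels differs between baseline and lesional mice, and the second differs between CTL and butyrate mice. What these numbers stand for is not stated. An effect of HDM or of butyrate and one of the set of mice therefore cannot be told apart. Whether the baseline mice sequenced here were shaved or patched is not stated. An effect of HDM and one of shaving or the patch therefore cannot be told apart either. Below, "with HDM" stands for lesional against baseline skin. The samples are whole skin, in which fewer cells of a type and less RNA per cell cannot be told apart.

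Filaggrin is made in the granular layer as a large precursor that is dephosphorylated and cut into filaggrin units, which bundle keratin filaments. Deiminases turn arginine residues into citrulline, which loosens filaggrin from keratin and exposes it to further proteolysis into the free amino acids of the natural moisturising factor. Transglutaminases meanwhile form isopeptide bonds between envelope proteins and so build the cornified envelope, and in the hair follicle deiminases and transglutaminases act together on trichohyalin.

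Library totals were 18004136 to 21085544 counts, and levels are given as CPM (counts scaled to library size, with TMM factors). The floor of 3 counts corresponded to 0.138 to 0.169 CPM. Baseline butyrate replicate 3 stood apart from the other 7 mice. In this mouse 256 genes of at least 1 CPM exceeded the highest other mouse more than 10-fold, against 0 or 1 gene in each of the other mice. Of the tested genes, 28.8% lay above and 30.2% lay below the range of the other 7 mice, whereas for each other mouse these shares were at most 12.6% and 13.4%. The 8 listed inner root sheath and medulla markers summed to 17973 CPM in this mouse and to 105 to 185 CPM in the others. The 8 listed hair shaft keratins summed to 3509 CPM against 0.382 to 3.22 CPM, with 1 to 4 of these keratins at 0 counts in each of the other mice. Results that rest on this mouse are therefore given with and without it. When it is left out, baseline butyrate holds a single mouse, which is then assumed to vary like the other groups.

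The plot of levels by mouse shows the 10 genes side by side.

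**Figure D1:**
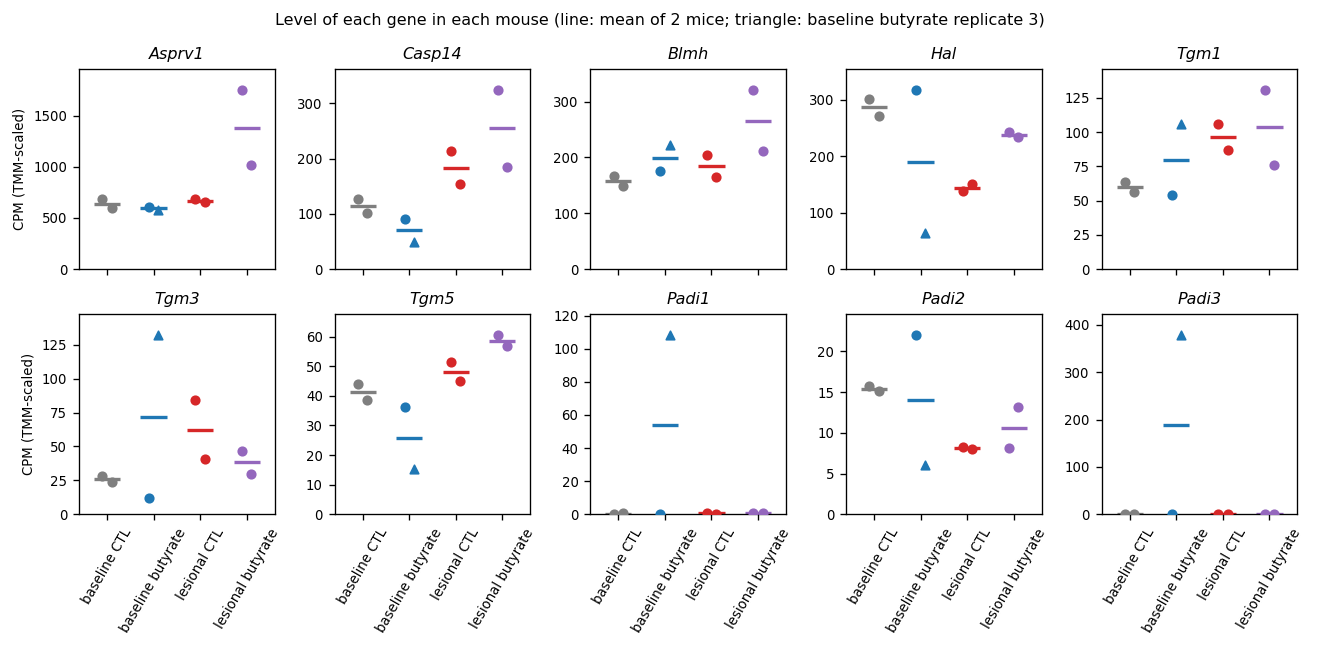
Level of each of the 10 genes in CPM of TMM-scaled libraries (linear axes from 0) in each of the 8 mice by group; lines are the means of 2 mice and the triangle is baseline butyrate replicate 3. Padi1 and Padi3 are near 0 in 7 mice and at 108 and 378 CPM in the triangle mouse, and Asprv1 is highest in lesional butyrate skin.

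Per kilobase of exon, Asprv1 was the most abundant of the 10 transcripts in every group, at 413 ± 38.0 CPM per kb in baseline CTL and 893 ± 335 CPM per kb in lesional butyrate skin (SD, n = 2). In baseline CTL skin Hal (51.6 ± 3.85 CPM per kb) and Casp14 (47.8 ± 7.09 CPM per kb) followed, and these neighbours overlapped. Blmh, Tgm1, Tgm5, Tgm3 and Padi2 came next without overlap between neighbours, from 26.8 ± 2.05 for Blmh down to 3.08 ± 0.0810 CPM per kb for Padi2 (SD, n = 2). Padi1 and Padi3 were last, at 0.0739 and 0.0725 CPM per kb, and did not differ beyond their spread. In lesional CTL skin Casp14 was in the second place at 76.8 ± 18.1 CPM per kb and Hal was in the fifth place at 25.9 ± 1.63 CPM per kb, below Blmh and Tgm1. In lesional butyrate skin Hal (42.9 ± 1.04 CPM per kb) was in the fourth place and overlapped with Blmh above it (45.17 ± 13.01 CPM per kb). In baseline butyrate skin the order below Asprv1 was set by replicate 3, and all neighbours from the second to the ninth place overlapped.

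Asprv1 encodes a retroviral-like aspartic protease of the granular layer that cuts the linkers between filaggrin units. It lies on chromosome 6 (GRCm38, 86628164 to 86629710, forward strand). It was at 681 and 597 CPM in baseline CTL, 610.3 and 576 CPM in baseline butyrate, 682 and 655 CPM in lesional CTL, and 1748 and 1016 CPM in lesional butyrate skin. The 6 mice of the other 3 groups lay between 576 and 682 CPM, and both lesional butyrate mice lay above all others, with replicate 3 far above replicate 4. In edgeR's quasi-likelihood fit of all 8 mice the log2 fold change with butyrate in lesional skin was 1.05 (SE 0.28, unadjusted p = 0.00929, FDR = 0.791), which did not pass. Over 15 alternatives its FDR ran from 0.0600 with DESeq2, which called it, to 1.0, and its log2 fold change fell to 0.60 without lesional butyrate replicate 3. In butyrate mice lesional skin exceeded baseline skin by a log2 fold change of 1.21 (SE 0.29, FDR = 0.206), and without baseline butyrate replicate 3 this was called (1.18, FDR = 0.0929). Both comparisons share the lesional butyrate mice and are not independent. In CTL mice the corresponding log2 fold change was 0.065 (SE 0.28). Beside these values, the 8 suprabasal keratinocyte markers summed to 4594 and 5478 CPM in lesional CTL and to 13011 and 10111 CPM in lesional butyrate skin, and their part in the Asprv1 result was not tested.

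Casp14 encodes a caspase of cornifying epithelia that cuts filaggrin into small peptides (chromosome 10, 78711991 to 78718294, reverse strand). It was at 126 and 102 CPM in baseline CTL, 90.1 and 49.9 CPM in baseline butyrate, 215 and 153 CPM in lesional CTL, and 324 and 186 CPM in lesional butyrate skin. Every lesional mouse was above every baseline mouse, while the lesional CTL and lesional butyrate mice overlapped. The log2 fold change of lesional against baseline skin was 0.69 (SE 0.38, FDR = 0.358) in CTL mice and 1.86 (SE 0.39, FDR = 0.191) in butyrate mice, and neither passed. The latter was 1.50 and was called without baseline butyrate replicate 3 (FDR = 0.0802). With butyrate in lesional skin the log2 fold change was 0.47 (SE 0.38, FDR = 1.00).

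Blmh encodes bleomycin hydrolase, a cysteine aminopeptidase that takes the filaggrin peptides down to free amino acids (chromosome 11, 76924809 to 76987379, forward strand). It was at 167 and 149.6 CPM in baseline CTL, 176 and 222 CPM in baseline butyrate, 204 and 165 CPM in lesional CTL, and 320.3 and 212 CPM in lesional butyrate skin. Butyrate mice lay above CTL mice without overlap at both stages, by log2 fold changes of 0.35 (SE 0.25, FDR = 0.714) in baseline and 0.53 (SE 0.25, FDR = 1.00) in lesional skin. These differences did not pass the test. Of all tested genes, 13.4% were higher without overlap with butyrate in baseline and 22.4% in lesional skin. Without baseline butyrate replicate 3 the log2 fold change in baseline skin was 0.16. The higher of the 2 lesional butyrate mice was replicate 3. This mouse held the highest of the 8 values for 5 of the 10 genes (Asprv1, Casp14, Blmh, Tgm1 and Tgm5), where 12.6% of the tested genes were highest in it.

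Hal encodes histidine ammonia-lyase, which deaminates histidine released from filaggrin to trans-urocanic acid, an absorber of ultraviolet light (chromosome 10, 93488768 to 93519304, forward strand). It was at 301 and 271 CPM in baseline CTL, 316 and 64.2 CPM in baseline butyrate, 137 and 150.2 CPM in lesional CTL, and 242 and 234 CPM in lesional butyrate skin. Both lesional CTL mice lay below both baseline CTL mice and below both lesional butyrate mice, and the low baseline butyrate value belongs to replicate 3. In the fit of all 8 mice the log2 fold change of lesional against baseline CTL skin was -0.99 (SE 0.63, FDR = 0.410), and that of butyrate in lesional skin was 0.73 (SE 0.63, FDR = 1.00). The values were nearly the same without baseline butyrate replicate 3, -0.99 and 0.73, with an FDR of 0.00344 and 0.0616. They were still not called because the fold changes of 1.99 and 1.66 stayed under the threshold of 2. In butyrate mice the log2 fold change of lesional against baseline skin was 0.32 with replicate 3 and -0.41 (FDR = 0.110) without it, so its direction depended on that mouse.

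Among the transglutaminases, Tgm1 encodes the membrane-anchored enzyme of the granular layer whose loss causes lamellar ichthyosis in humans (chromosome 14, 55700009 to 55713926, reverse strand). Tgm1 was at 63.9 and 56.2 CPM in baseline CTL, 53.8 and 106 CPM in baseline butyrate, 106 and 87.2 CPM in lesional CTL, and 131 and 76.2 CPM in lesional butyrate skin. Lesional CTL mice lay above baseline CTL mice (log2 fold change 0.69, SE 0.39, FDR = 0.364), whereas the butyrate and CTL mice overlapped at both stages. In lesional skin the log2 fold change with butyrate was 0.10 (SE 0.38), and its sign turned when lesional butyrate replicate 3 (-0.34) or lesional CTL replicate 5 (-0.035) was left out.

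Tgm3 encodes a cytosolic enzyme activated by proteolysis that serves both the epidermis and the hair follicle (chromosome 2, 130012349 to 130050399, forward strand). It was at 28.1 and 24.0 CPM in baseline CTL, 11.7 and 132 CPM in baseline butyrate, 84.1 and 40.4 CPM in lesional CTL, and 46.8 and 29.7 CPM in lesional butyrate skin. The highest of the 8 values was that of baseline butyrate replicate 3, and the lowest that of the other mouse of the same group. Lesional CTL skin exceeded baseline CTL skin by a log2 fold change of 1.26 (SE 0.99, FDR = 0.495), and without baseline butyrate replicate 3 this was called (1.25, FDR = 0.0560). In butyrate mice the direction depended on that mouse, with a log2 fold change of -0.93 (SE 0.98, FDR = 0.739) with it and 1.71 (FDR = 0.104) without it. The same held for butyrate in baseline skin, where 1.49 (SE 0.99, FDR = 0.714) became -1.16 (FDR = 1.0).

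Tgm5 encodes the enzyme whose loss causes acral peeling skin in humans (chromosome 2, 121046111 to 121085841, reverse strand). It was at 44.1 and 38.5 CPM in baseline CTL, 36.2 and 15.4 CPM in baseline butyrate, 51.4 and 44.9 CPM in lesional CTL, and 60.5 and 56.8 CPM in lesional butyrate skin. The groups did not overlap in any of the 4 comparisons. Butyrate mice were lower than CTL mice in baseline skin and higher in lesional skin. Of all tested genes, 16.4% were lower without overlap with butyrate in baseline and 22.4% higher in lesional skin. For lesional against baseline skin, 36.7% were higher without overlap in CTL and 16.4% in butyrate mice. The log2 fold changes with butyrate were -0.67 (SE 0.36, FDR = 0.714) in baseline and 0.28 (SE 0.36, FDR = 1.00) in lesional skin. Without baseline butyrate replicate 3 these butyrate values were -0.19 in baseline and 0.28 in lesional skin. Lesional against baseline skin gave 1.18 (SE 0.37, unadjusted p = 0.0172, FDR = 0.291) in butyrate mice and 0.22 (SE 0.36, FDR = 0.747) in CTL mice. The value in butyrate mice was 0.70 without baseline butyrate replicate 3 (FDR = 0.0601), a fold of 1.62 that was under the threshold.

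**Figure D2:**
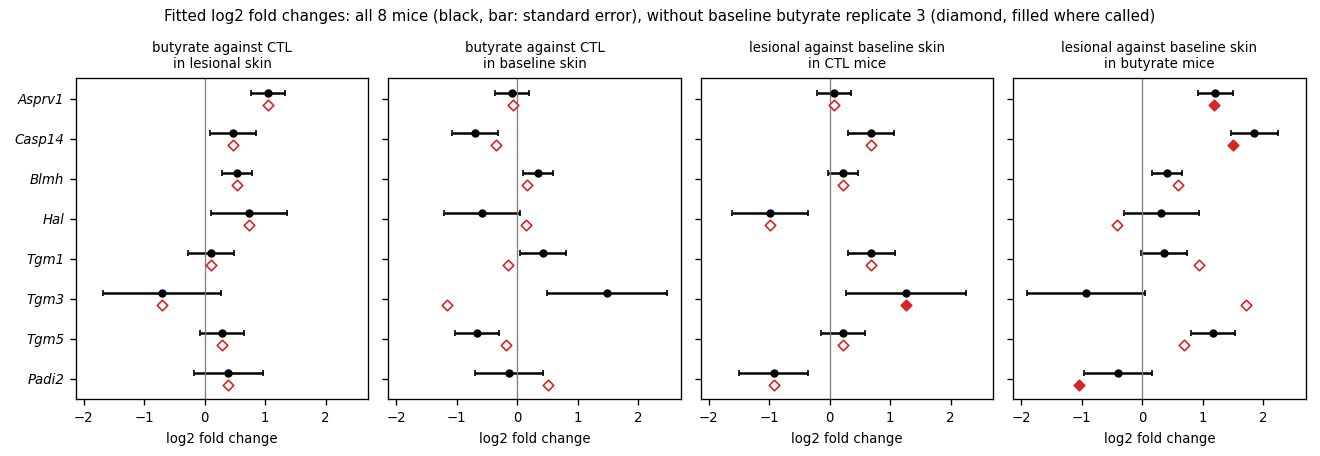
Fitted log2 fold changes of 8 genes (rows) in 4 comparisons (panels). Black points are edgeR's fit of all 8 mice with bars of 1 standard error, and red diamonds are the fit without baseline butyrate replicate 3, filled where called at an FDR below 0.1 and a fold above 2; Padi1 is off this scale and Padi3 was not tested. Filled diamonds are Tgm3 in CTL mice and Asprv1, Casp14 and Padi2 in butyrate mice, and Tgm3 changes side with that mouse in the baseline butyrate panel and in the last panel.

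The deiminases Padi1 and Padi3 lie next to each other on chromosome 4 on the reverse strand (140812983 to 140845778 and 140785365 to 140810648), with 2.33 kb between them, and Padi2 follows 60.6 kb further on the forward strand (140906344 to 140952586). Padi3 deiminates trichohyalin in the hair follicle as well as filaggrin, and Padi1 acts in the epidermis and the follicle. Padi1 was at 0 and 0.555 CPM in baseline CTL, 0.282 and 108 CPM in baseline butyrate, 0.694 and 0.323 CPM in lesional CTL, and 0.573 and 0.558 CPM in lesional butyrate skin. Padi3 was at 0.278 and 0.222 CPM in baseline CTL, 0.0564 and 378 CPM in baseline butyrate, 0.480 and 0.0461 CPM in lesional CTL, and 0.0954 and 0.372 CPM in lesional butyrate skin.

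Baseline butyrate replicate 3 had 2313 counts for Padi1 and 8080 for Padi3. The other 7 mice had 0 to 13 counts for Padi1 and 1 to 9 counts for Padi3. Against the highest other mouse this mouse was 156-fold higher for Padi1 and 787-fold higher for Padi3. The log2 fold changes fitted for Padi1, 7.61 for butyrate in baseline skin (SE 2.52, unadjusted p = 0.0224, FDR = 0.714) and -6.60 for lesional against baseline skin in butyrate mice (SE 2.32, FDR = 0.324), came from this mouse. Without it they were 0.021 and 0.99 (FDR = 1.0 and 0.643), and the counts of the other 7 mice were too low to show a difference in Padi1 or Padi3 at this depth.

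Padi2, the most widely expressed deiminase, which is also found in skeletal muscle, was at 15.7 and 15.1 CPM in baseline CTL, 22.0 and 6.03 CPM in baseline butyrate, 8.27 and 7.98 CPM in lesional CTL, and 8.11 and 13.2 CPM in lesional butyrate skin. It was lower in both lesional CTL mice than in both baseline CTL mice (log2 fold change -0.93, SE 0.57, FDR = 0.398). Without baseline butyrate replicate 3 the difference in CTL mice had an FDR of 0.0325 at a fold of 1.90, which was under the threshold. In butyrate mice the log2 fold change of lesional against baseline skin was -0.40 (SE 0.56, FDR = 0.815) with all 8 mice, where the groups overlapped, and -1.04 (FDR = 0.0785), which was called, without that mouse. The 7 skeletal muscle markers were likewise highest in the 3 other baseline mice and lowest in baseline butyrate replicate 3, summing to 37145 and 45153 CPM in baseline CTL, 42692 and 9216 CPM in baseline butyrate, 15940 and 22425 CPM in lesional CTL, and 12899 and 23035 CPM in lesional butyrate skin. Their part in the Padi2 values was not tested.

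To place these genes among their families, baseline butyrate replicate 3 was set beside the other mice for further transglutaminase and deiminase genes. The bar plot of ratios leaves out Tgm4, F13a1 and Epb42 of that list. In this mouse F13a1 was below the other mice, at 58.5 against 64.0 to 211 CPM. Epb42 was also below them, at 0.0935 CPM, under the floor, against 0.480 to 1.69 CPM. Tgm4 was within their range, at 0.234 against 0.138 to 0.610 CPM. Tgm6, 62.0 kb from Tgm3 on chromosome 2, was at 206 CPM in baseline butyrate replicate 3 and had at most 2 counts in any other mouse. Padi4, 11.1 kb from Padi3, was at 95.1 CPM there and between 3.21 and 40.3 CPM in the other mice. Tgm2, the tissue transglutaminase, was instead lowest there, at 65.4 CPM against 101 to 444 CPM. Tgm7, 7.72 kb from Tgm5, was at 0.655 CPM there, within the range of 0.415 to 6.26 CPM of the other mice. Of the 10 genes under study, 3 lay above the range of the other 7 mice in this mouse (Padi1, Padi3 and Tgm3), 5 lay below it (Asprv1, Casp14, Hal, Padi2 and Tgm5) and Blmh and Tgm1 lay within it, where 28.8% of all tested genes lay above and 30.2% below. Trichohyalin (Tchh), a substrate of both enzyme families in the inner root sheath, was at 6192 CPM in this mouse and at 5.07 to 11.1 CPM in the others. Suprabasal keratinocyte markers summed to 3166 CPM in this mouse and to 12907 CPM in the other baseline butyrate mouse. The list was split, with Krt1, Krt10, Krt2, Lor, Dsg1a and Krtdap below the mean of the other baseline mice. Ivl (337 against 148 CPM) and Dsc1 (287 against 207 CPM) were above it. The part of these markers in the levels of the 10 genes was not tested.

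**Figure D3:**
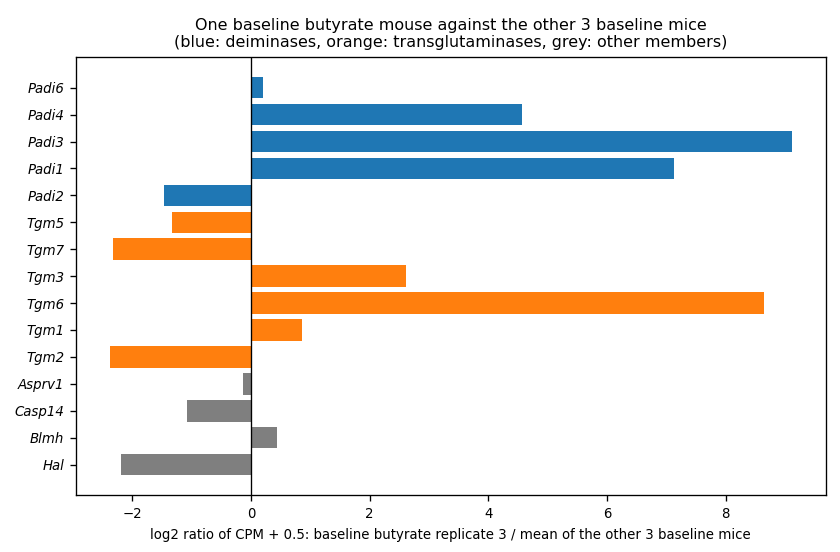
Log2 ratio of CPM + 0.5 in baseline butyrate replicate 3 to the mean of the other 3 baseline mice, 1 bar per gene, with deiminases in blue, transglutaminases in orange and the other 4 genes in grey. Padi3, Padi1, Padi4 and Tgm6 extend far to the right, while Padi2, Tgm2, Tgm5, Tgm7 and Hal lie to the left of 0.

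**Figure D4:**
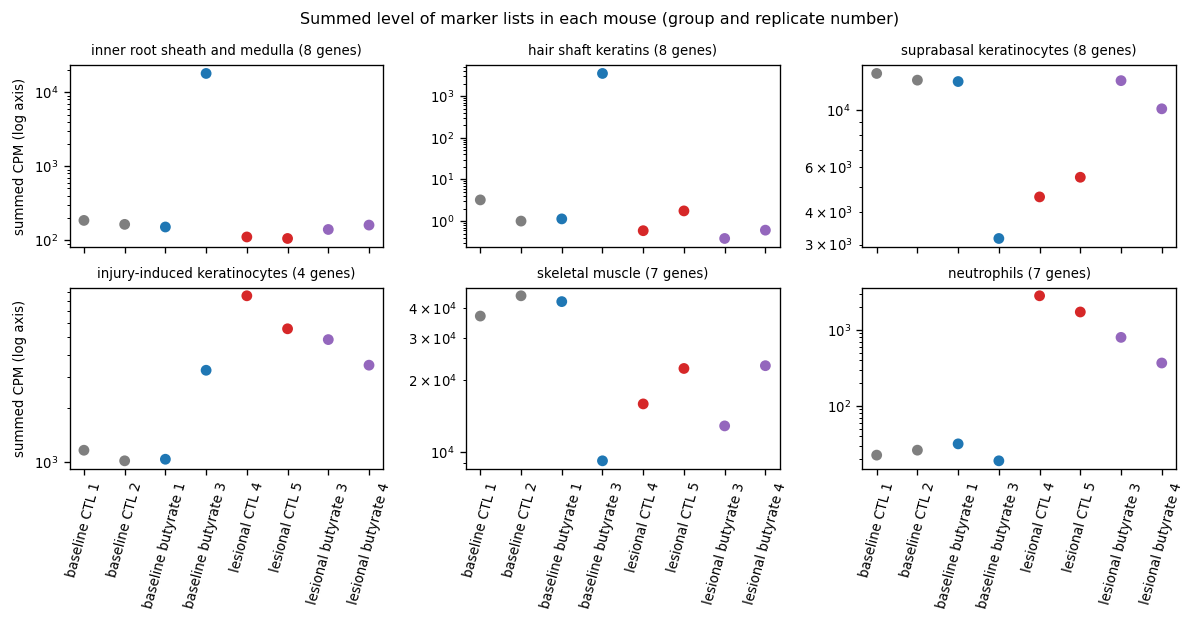
Summed CPM of 6 marker lists (log axes) in each of the 8 mice. Inner root sheath and hair shaft lists are high in baseline butyrate replicate 3 alone. The sum of the suprabasal markers is low in that mouse and in lesional CTL skin, and neutrophil markers are high in all lesional mice.

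Promoters of the 2 neighbouring deiminases and of Tgm3, which were high in the same mouse, and of Asprv1, the most abundant gene, are shown with the 250 bases before the RefSeq start (GRCm38.p6, 5′ to 3′ on the gene's strand). Capitals mark matches, on either strand, to the TATA box (TATAAA), the CCAAT box, the AP-1 motif (TGANTCA), the Sp1 motif (GGGCGG) and the GATA motif (AGATAA).
Padi3 (chr4:140810649-140810898, reverse strand): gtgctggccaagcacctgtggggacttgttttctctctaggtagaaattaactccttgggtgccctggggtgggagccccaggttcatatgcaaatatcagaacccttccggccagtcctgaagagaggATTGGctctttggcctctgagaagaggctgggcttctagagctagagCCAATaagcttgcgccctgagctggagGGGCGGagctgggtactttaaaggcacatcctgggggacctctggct
Padi1 (chr4:140845779-140846028, reverse strand): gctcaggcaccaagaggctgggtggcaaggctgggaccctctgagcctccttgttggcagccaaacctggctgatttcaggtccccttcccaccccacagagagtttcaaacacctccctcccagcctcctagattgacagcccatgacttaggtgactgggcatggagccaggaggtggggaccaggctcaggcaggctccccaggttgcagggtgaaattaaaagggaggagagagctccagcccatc
Tgm3 (chr2:130012090-130012339, forward strand): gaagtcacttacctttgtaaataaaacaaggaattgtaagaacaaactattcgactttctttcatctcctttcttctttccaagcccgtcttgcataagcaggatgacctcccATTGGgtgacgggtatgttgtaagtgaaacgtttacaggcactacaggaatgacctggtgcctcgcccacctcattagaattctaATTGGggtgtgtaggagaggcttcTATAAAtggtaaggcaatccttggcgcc
Asprv1 (chr6:86627924-86628173, forward strand): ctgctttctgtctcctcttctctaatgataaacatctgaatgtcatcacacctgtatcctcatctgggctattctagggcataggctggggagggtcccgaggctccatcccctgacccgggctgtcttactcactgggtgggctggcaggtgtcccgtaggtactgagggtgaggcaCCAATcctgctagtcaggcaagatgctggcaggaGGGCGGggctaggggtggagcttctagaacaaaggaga

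Padi3 held CCAAT letters starting 74 and 121 bases before the start and Sp1 letters 47 bases before it, while Padi1 held none of the 5 motifs. Tgm3 held TATAAA 28 bases before the start and CCAAT letters 52 and 137 bases before it, and Asprv1 held CCAAT letters 72 bases and Sp1 letters 38 bases before it. Over all 10 genes, CCAAT was found in 7, Sp1 letters in 5, TATAAA in 2 (Hal and Tgm3), AP-1 letters in 1 (Hal) and GATA letters in 0. Among 27025 promoters of the same length the shares were 34.46%, 32.94%, 12.97%, 6.87% and 10.25%, taking 1 start a gene. Tgm1 has 2 listed starts and was counted where either held a motif. These are letter matches and not sites shown to be bound.

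Across the 9 tested genes, none was called in any of the 4 comparisons or in the difference between them when edgeR was fitted to all 8 mice. limma-voom called none either, and DESeq2 called Asprv1 in lesional skin and 4 genes for lesional against baseline skin in butyrate mice (Asprv1, Casp14, Padi1 and Tgm5). For butyrate against CTL in lesional skin, 0.0% of all tested genes were called and 4.84% had an unadjusted p below 0.05, among them 1 of the 9 (Asprv1). The median log2 fold change of the 9 genes was 0.39, beside -0.0053 over all tested genes. In 4 of the 9 (Asprv1, Blmh, Hal and Tgm5) both butyrate mice exceeded both CTL mice and in 0 of the 9 they were lower, where 22.4% of all tested genes were higher and 22.5% lower. When baseline butyrate replicate 3 was left out, 1.22% of genes were called and none of the 9. In the same mice 8 of 8 suprabasal keratinocyte markers had positive values with a median of 0.89, and 6 of 6 tested neutrophil markers had negative values with a median of -2.01, and their part in the values of the 9 genes was not tested.

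For butyrate against CTL in baseline skin, 0.0% of all genes were called and 3.49% had an unadjusted p below 0.05, among them 1 of the 9 (Padi1). Blmh was higher and Casp14 and Tgm5 were lower without overlap, where 13.4% of all genes were higher and 16.4% lower. Without baseline butyrate replicate 3 the log2 fold changes of Blmh, Casp14 and Tgm5 were 0.16, -0.34 and -0.19. The median log2 fold change of the 9 genes was -0.095, beside 0.0012 over all tested genes. The difference of the butyrate effect between the 2 stages was called in 0.0% of genes, and 4.64% had an unadjusted p below 0.05, among them 1 of the 9 (Asprv1, log2 difference 1.14, SE 0.40, FDR = 0.840).

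For lesional against baseline skin in CTL mice, 3.58% of all genes were called and 19.7% had an unadjusted p below 0.05, against 0 and 0 of the 9. The median log2 fold change of the 9 genes was 0.22, beside -0.015 over all tested genes. Casp14, Tgm1, Tgm3 and Tgm5 were higher without overlap and Hal and Padi2 lower, where 36.7% of all genes were higher and 38.5% lower. Without baseline butyrate replicate 3, 12.5% of genes were called and Tgm3 among the 9. In butyrate mice 0.35% of all genes were called and 13.1% had an unadjusted p below 0.05, against 0 and 4 of the 9 (Casp14, Asprv1, Tgm5 and Padi1). The median of the 9 was 0.35, beside -0.045 over all tested genes. Asprv1, Casp14 and Tgm5 were higher without overlap and none was lower, where 16.4% of all genes were higher and 16.0% lower. In the fit without baseline butyrate replicate 3 the median of the 9 was 0.94, beside -0.0020 over all tested genes. Values were then positive for 7 of the 9 and negative for Hal (-0.41) and Padi2 (-1.04). Without baseline butyrate replicate 3, 5.94% of genes were called and 3 of the 9 (Asprv1, Casp14 and Padi2). Each of these comparisons shares mice with the butyrate comparisons.

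The rest of the pathway was read from lists of the genes around these enzymes, each in the fit of all 8 mice and in the fit without baseline butyrate replicate 3. The latter called 1.22% of all genes for butyrate in lesional skin, 12.5% for lesional against baseline skin in CTL mice and 5.94% in butyrate mice. Of 13 proteases that cut or activate in this pathway, Klk14 and Capn2 were called in CTL mice with HDM. Klk14, a kallikrein protease, was at 0.222 to 0.555 CPM in the baseline mice and 3.30 to 10.1 CPM in the lesional mice (log2 fold change 4.12, SE 0.80, FDR = 0.0676). Capn2, the large subunit of a calpain, was at 139 and 166 CPM in baseline CTL and 349.8 and 320.2 CPM in lesional CTL skin (1.13, SE 0.17, FDR = 0.0384). The median log2 fold change of these proteases in that comparison was 0.69. Without that mouse 4 of the 13 were called in CTL mice (Klk7, Klk14 and Capn2 higher and Klk5 lower) and 2 in butyrate mice (Klk7 and Klk14, both higher). Of 7 protease inhibitors none was called. Spink5, the inhibitor of kallikreins, was at 426 and 480 CPM in lesional CTL and 1077 and 746 CPM in lesional butyrate skin (1.01, SE 0.30, FDR = 0.851). For butyrate in lesional skin 5 of the 7 had positive and 2 had negative values, with a median of 0.26. Without that mouse 1 of the 7 was called higher with HDM in CTL mice (Cstb, a cystatin) and 2 in butyrate mice (Cstb and Cst6), with a median of 0.41 in the latter.

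Of the filaggrin-like S100 fused-type proteins (Flg itself is not analysed here), 5 of 6 listed were tested. Rptn (repetin) was called higher with HDM in CTL mice, from 37.8 and 19.8 CPM to 475 and 294 CPM (3.74, SE 0.64, FDR = 0.0511). Flg2 was instead lower in the same comparison, at 717 and 600.3 CPM against 54.4 and 129.8 CPM (-2.84, SE 0.78, FDR = 0.137), and Hrnr was at 250 and 206 CPM against 117 and 176 CPM. Without baseline butyrate replicate 3, Flg2 (-2.84, FDR = 0.0119) and Rptn were called in CTL mice and Rptn in butyrate mice. Of 9 envelope proteins and keratins, Krt2, a keratin of the upper epidermis, was called lower at very low levels, 1.11 and 0.943 CPM against 0.320 and 0.323 CPM (-1.66, SE 0.38, FDR = 0.0917). In that comparison 7 of the 9 had negative values, with a median log2 fold change of -1.16. Krt10, a keratin of the suprabasal layers, was at 6948 and 6664 CPM in baseline CTL and 834 and 1697 CPM in lesional CTL skin (-2.43, SE 0.84, FDR = 0.200). Krt77 was at 4243 and 3925 CPM against 194 and 764 CPM (-3.09, SE 0.94, FDR = 0.160). Lor, which encodes the envelope protein loricrin, was at 701 and 616 CPM against 101 and 147 CPM (-2.41, SE 0.68, FDR = 0.141). For all 3 the lesional CTL mice lay below the baseline CTL mice without overlap. Without baseline butyrate replicate 3, 6 of the 9 were called in CTL mice, with Krt1, Krt2, Krt10, Krt77 and Lor lower and Cnfn higher, and Cnfn was the 1 called in butyrate mice. In that fit 3 of the 9 were called higher with butyrate in lesional skin, namely Lor (1.54, FDR = 0.0778), Krt1 (1.25, FDR = 0.0702) and Krt10 (1.80, FDR = 0.0986), and all 9 had positive values both with and without that mouse. Of the 6 tested genes around histidine and the natural moisturising factor, Hdc, which makes histamine from histidine, was called higher with HDM in CTL mice, from 7.67 and 9.82 CPM to 77.1 and 80.2 CPM (3.17, SE 0.50, FDR = 0.0428). In lesional butyrate skin it was at 20.7 and 16.5 CPM (log2 fold change against lesional CTL -2.08, SE 0.47, FDR = 0.737). Arg1, which makes ornithine from arginine, was called lower with HDM in CTL mice (-1.90, SE 0.21, FDR = 0.0263) and in butyrate mice (-1.77, SE 0.21, FDR = 0.0709). Without baseline butyrate replicate 3, Hdc was also called lower with butyrate in lesional skin (-2.08, FDR = 0.0240), and Slc7a11, a cystine transporter, was called higher with HDM in CTL and butyrate mice beside Hdc in CTL mice and Arg1 in both. Of the 6 tested other transglutaminases and deiminases none was called, whereas the fit without baseline butyrate replicate 3 called 3 of them, 1 for butyrate in lesional skin, 3 in CTL mice and 2 in butyrate mice with HDM. Tgm7, at 0.480 and 0.415 CPM in lesional CTL and 1.96 and 1.86 CPM in lesional butyrate skin, was called higher with butyrate (2.08) and lower with HDM in CTL (-3.41) and butyrate mice (-1.71). Tgm4 was called lower with HDM in CTL mice (-1.49). It was at 0.389 to 0.610 CPM in baseline CTL and 0.138 to 0.213 CPM in lesional CTL skin, the latter near the floor of 3 counts. Padi4 was called higher with HDM in CTL (2.44) and butyrate mice (3.28). Neutrophil markers summed to 18.9 to 31.6 CPM in baseline, 1717 to 2805 CPM in lesional CTL and 366 to 795 CPM in lesional butyrate skin. Padi4 was at 18.1 to 21.9 CPM in lesional CTL and 22.4 to 40.3 CPM in lesional butyrate skin, and so was not lower there as these markers were. The part of the neutrophil markers in the Hdc and Padi4 values was not tested.

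For each tested gene the gene nearest to it in pattern was sought among 14187 genes of at least 1 CPM, by the root-mean-square distance of centred log2 CPM over the 8 mice. Asprv1 was nearest to Slc46a2 (0.14), Casp14 to Fgfbp1 (0.19), Blmh to Nipal4 (0.056), Hal to Susd2 (0.10) and Tgm1 to Mpzl2 (0.079). Padi1 was nearest to Ly6g6d (0.33), Padi2 to Myod1 (0.12), Tgm3 to Car2 (0.35) and Tgm5 to Pctp (0.10). Ly6g6d was at 110 CPM in baseline butyrate replicate 3 and at 0.267 to 0.605 CPM in the other mice. The match of Padi1 thus rests on that mouse, and distances without it were not computed. Myod1 encodes a transcription factor of skeletal muscle, and its levels were 8.33 and 8.66 CPM in baseline CTL and 4.54 and 5.08 CPM in lesional CTL skin. Slc46a2 was at 29.4 and 24.6 CPM in baseline CTL and 81.5 and 58.4 CPM in lesional butyrate skin.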

How the data were processed

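Skin RNA of 8 mice was analysed. The authors aligned the reads with STAR 2.5.2 to GRCm38 and counted them per protein-coding gene with featureCounts, and the deposited values are raw counts. Groups came from the labels, where SCFA was read as butyrate and vehicle as CTL. CPM used TMM-scaled libraries of 18004136 to 21085544 counts, so genes near 3 counts are imprecise.

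Tests were edgeR's quasi-likelihood test (edgeR 4.0.16, R 4.3.3, robust) on all 8 mice after filterByExpr (minimum count 10), called at a Benjamini-Hochberg FDR below 0.1 over 15163 genes and a fold above 2, the thresholds of the study. The fit used a prior count of 0.125. As alternatives, DESeq2 1.42.0 and limma-voom (limma 3.58.1) were run. The rest were other normalizations, no filter, a prior count of 2, only the mice compared, and leaving out each mouse.

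The genes and lists were chosen with earlier results of these data known. All 10 genes are named, and other list genes where called in a main comparison or needed for a role, while genes called only without 1 mouse, and Krt10, Krt77 and Lor, were named after their values were seen. Of 122 listed symbols, Flg and Krt85 had no row and are not analysed here. Positions are from GENCODE vM21 and promoters from RefSeq (GRCm38.p6), where 10 of 10 genes matched. The fit was tested on simulated data with a smaller spread than these data and no mouse set apart. That test does not show how many changes the fit can find in the real mice. P-values rest on a spread pooled over all 4 groups of 2 mice and not only on the mice compared. A mouse outside a comparison can therefore change its p-value and FDR. An exact test of 2 against 2 cannot go below 0.333.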

Additional observations from a re-analysis of the deposited data

Results flagged for a closer look

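Tgm5 moved in opposite directions with butyrate in baseline and lesional skin, since both baseline butyrate mice lay below both baseline CTL mice and both lesional butyrate mice above both lesional CTL mice. The difference between the effects was 0.95 on the log2 scale (SE 0.51, unadjusted p = 0.110, FDR = 0.840), which did not pass, and it was 0.47 (FDR = 0.555) without baseline butyrate replicate 3.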

How the results depend on the processing

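Of 45 log2 fold changes of the 9 tested genes, 666 alternatives were computed, of which 614 kept direction and call, 30 became called and 22 turned direction. Genes called for butyrate in lesional skin numbered 1 with limma-voom, 124 with DESeq2, 25 with only the 4 mice compared and 0 to 191 when 1 mouse was left out. DESeq2 called 1 of the 9 there. In baseline skin DESeq2 called 58 genes, and leaving out 1 mouse gave 0 to 3777, of the 9 genes 0 to 7. For lesional against baseline skin in CTL mice DESeq2 called 1093 genes, the 4 mice compared 1918 with 1 of the 9, and leaving out 1 mouse 0 to 1936, of the 9 genes 0 to 1. In butyrate mice DESeq2 called 698 genes with 4 of the 9, the 4 mice compared 0, and leaving out 1 mouse 0 to 2990, of the 9 genes 0 to 7. For the difference DESeq2 called 37, and leaving out 1 mouse gave 0 to 3275, of the 9 genes 0 to 8. The highest of each of these ranges came without baseline butyrate replicate 1, which leaves replicate 3 as the only baseline butyrate mouse. In CTL mice the count was 0 without either baseline CTL mouse 16 or 23 without 1 lesional CTL mouse and 109 or 117 without 1 lesional butyrate mouse. In butyrate mice it was 0 without lesional CTL replicate 4 and 2 to 6 without baseline CTL replicate 1 or 2, lesional CTL replicate 5 or either lesional butyrate mouse. The cause was not tested.
The 22 turns all came from leaving out 1 mouse. With 1 mouse left out, log2 fold changes ran as follows. For butyrate in lesional skin they ran from -0.29 to 0.80 for Padi1, from -0.0017 to 0.70 for Padi2 and from -0.34 to 0.43 for Tgm1. For butyrate in baseline skin they ran from -2.13 to 0.15 for Hal, -1.33 to 0.51 for Padi2, -0.16 to 0.84 for Tgm1 and -1.16 to 2.36 for Tgm3. For lesional against baseline skin in CTL mice they ran from -0.025 to 0.16 for Asprv1 and -0.14 to 6.34 for Padi1. In butyrate mice they ran from -0.41 to 1.87 for Hal, -7.59 to 0.99 for Padi1, -1.04 to 0.80 for Padi2, -0.081 to 0.94 for Tgm1 and -1.81 to 1.71 for Tgm3. The differences ran from -0.14 to 0.45 for Blmh, -12.93 to 0.16 for Padi1, -0.12 to 1.72 for Padi2, -0.77 to 0.26 for Tgm1 and -3.06 to 0.46 for Tgm3. When baseline butyrate replicate 3 was left out, Hal, Padi2, Tgm1 and Tgm3 turned in baseline skin, Hal, Padi1 and Tgm3 in butyrate mice, and Padi1, Padi2, Tgm1 and Tgm3 in the difference.
No paired analysis was possible because each library is from a different mouse and the labels name no pairs.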
